A study of Mus musculus with 502 samples.

Results

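The light chain variable segment genes were taken as every row of the count table named as a kappa (Igkv) or lambda (Iglv) variable segment, among 46603 gene rows. They comprised 80 rows that were read in the B cells described here and 85 that were not, and all but 3 lambda rows were kappa. Each B cell makes its light chain by joining a variable (V) segment to a short joining (J) segment upstream of a constant region. Joining proceeds at the kappa locus and, where it fails there, at the lambda locus, and the product is tested on the cell surface, so that a mature B cell is known to carry mostly 1 productive light chain. A segment that has not been joined is known to be transcribed at a low level, if at all, and the segment carried by a cell therefore identifies its clone in part.

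The cells were sorted as single, propidium iodide negative, Cd45+ cells from kidneys of wild type CD1 mice, an outbred stock, of about 3 weeks of age. Kidneys were dissociated fresh or after storage, as intact organs, in the hypothermic solution HTS-FRS at 4 °C for 6 h or for 1, 2, 3 or 4 days. They were not perfused before harvest, so cells from the blood were not removed from the organ. Both kidneys of a mouse (up to day 2) or parts of the kidneys of a mouse (day 3 and day 4) were pooled for a timepoint, and the labels name no animal, so each timepoint counted as 1 sample. No test was made over cells, and the intervals given are exact intervals at the 95% level for counting error only.

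The table held 502 cells with 1759 to 1895431 reads on genes per cell (median 695188). Values are given as reads per 1000000 of these (rpm). A number in the labels was taken as the library pool. Of the fresh cells 75 sat in pool A, with everything sorted at 6 h and day 2, and 81 in pool B, with everything sorted at day 1 and day 3. The 35 cells of day 4 were divided, with 19 in pool B, 2 in pool A and 14 in another pool. A combination of Nextera indices served in more than 1 pool for 362 of the cells. Libraries of different pools therefore share combinations, and libraries of a pool share single indices.

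Cells that could carry a light chain were found through a pair of other genes, Cd79a and Cd79b, which encode the signaling chains of the B cell receptor. Both were at 10 rpm or more in 76 of 502 cells, called Cd79a/Cd79b cells here. They comprised 17 fresh cells (10.9% of those sorted fresh, 6.48 to 16.9), 9 cells of 6 h (11.8%), 14 of day 1 (18.7%), 30 from day 2 (38.5%, 27.7 to 50.2), 4 from day 3 (4.88%) and finally 2 from day 4 (5.71%). All 17 fresh ones came from pool B, where they were 20.99% of 81 fresh cells (12.7 to 31.5). In that pool the shares were 18.7% at day 1 (10.6 to 29.3), 4.88% at day 3 and 10.5% of 19 cells at day 4. The fresh share of 10.9% thus averages both pools, and within pool B the share of day 1 lay inside the fresh interval. Pool A had 0 among 75 fresh cells, which at 3 counts allows a share of up to 4.00%. The Cd79a/Cd79b cells of 6 h and day 2 thus had no fresh cells of their own pool beside them, and for these timepoints preservation and pool cannot be told apart.

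Other markers fitted the name of B cell for most of them. Besides Cd79a and Cd79b, which the rule used, each of the 9 B cell markers examined was read in at least 25% of the Cd79a/Cd79b cells, with Ms4a1 (CD20) in 57 of 76. Ighm, the heavy chain of IgM, was read in all 76 (median 7620 rpm), but also in 49.5% of the other cells, at 15365 rpm at most. Ighd, the heavy chain of IgD, was read in 65 (median 1609 rpm) and in 2.58% of the other cells. Of 6 plasma cell markers, 5 were measured; Jchain was not read in any of these cells, Sdc1 was read in 4, and Mzb1 in 43. Xbp1 was read in 15, and summed plasma cell markers reached 100 rpm in 44 cells. Summed T cell markers reached 100 rpm in 4 cells, summed macrophage markers in 4 and summed kidney epithelium markers in 3. Umod, a gene of kidney tubules, was read in 10 of the 76 cells, 8 of them of day 2, and in 1.88% of the other cells; its part in the results was not tested. Doublets were not called.

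A pair of cells stood apart. In 6 h cell 44, Cd79a was at 18 rpm, against 373 rpm in the next lowest Cd79a/Cd79b cell, and C1qa, a complement gene of macrophages, had 6282 reads. In day 2 cell 41, 83 reads of the T cell gene Cd3e and 897 of C1qa accompanied 975 light chain V reads. Cells are numbered within their timepoint in the order of the deposited samples, and values without the 3 Cd79a/Cd79b cells that had C1qa at 10 rpm or more are given with the processing.

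The segments lie in 2 clusters. Of all rows, 2 matched a gene by name in RefSeq only and 4 could not be matched, and the others matched the GENCODE annotation of GRCm38, and it is not known which gene the 4 unmatched rows are. Names are written as in the table, with a point for the hyphen of the official symbol. The kappa segments span chr6:67555497-70704177, on both strands, with Igkc at chr6:70726435-70726966, and the 3 lambda segments lie within chr16:19085017-19260859. GENCODE calls 58 of the rows it matched V pseudogenes and the others functional V genes. The sequences below are V exons of GRCm38, read 5′ to 3′ on the strand of the gene. They comprise the segments that were on top in the most cells, both lambda segments that were read, and pairs whose likeness bears on cells with more than 1 segment.

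Igkv10.96 (chr6:68631963-68632260, minus strand) was the top segment of the most cells, and Igkv10.94 (chr6:68704508-68704805, minus strand) was read beside it in several. Capitals mark the 16 of 298 bases at which they differ.
Igkv10.96: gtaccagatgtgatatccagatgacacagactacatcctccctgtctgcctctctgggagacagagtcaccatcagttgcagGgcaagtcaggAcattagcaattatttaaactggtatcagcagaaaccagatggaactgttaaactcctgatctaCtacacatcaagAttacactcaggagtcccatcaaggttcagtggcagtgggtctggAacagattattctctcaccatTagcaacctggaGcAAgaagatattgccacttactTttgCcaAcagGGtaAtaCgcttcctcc
Igkv10.94: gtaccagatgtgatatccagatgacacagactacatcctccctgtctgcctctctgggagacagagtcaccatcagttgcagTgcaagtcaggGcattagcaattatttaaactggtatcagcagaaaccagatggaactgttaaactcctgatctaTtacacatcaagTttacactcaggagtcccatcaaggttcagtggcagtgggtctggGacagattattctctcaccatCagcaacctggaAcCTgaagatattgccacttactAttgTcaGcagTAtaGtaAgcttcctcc
The longest stretch they share is 82 bases, longer than a read of 75 bases, so that a read lying wholly within it cannot by itself be assigned to either. Reads were sequenced as paired ends, and the place of the mate was not considered here.

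Igkv12.46 (chr6:69764523-69764820, minus strand), a functional gene, and Igkv12.40 (chr6:69879350-69879647, minus strand), a pseudogene, were read together in 3 Cd79a/Cd79b cells. Of the pair, 2 further Cd79a/Cd79b cells had reads of the former alone. Capitals mark the 20 of 298 bases at which they differ.
Igkv12.46: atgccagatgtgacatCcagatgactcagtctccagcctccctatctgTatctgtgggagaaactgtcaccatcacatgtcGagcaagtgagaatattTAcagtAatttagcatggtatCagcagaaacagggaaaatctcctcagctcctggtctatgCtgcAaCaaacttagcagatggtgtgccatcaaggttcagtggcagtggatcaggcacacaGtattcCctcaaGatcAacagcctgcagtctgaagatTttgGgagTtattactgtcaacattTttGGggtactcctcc
Igkv12.40: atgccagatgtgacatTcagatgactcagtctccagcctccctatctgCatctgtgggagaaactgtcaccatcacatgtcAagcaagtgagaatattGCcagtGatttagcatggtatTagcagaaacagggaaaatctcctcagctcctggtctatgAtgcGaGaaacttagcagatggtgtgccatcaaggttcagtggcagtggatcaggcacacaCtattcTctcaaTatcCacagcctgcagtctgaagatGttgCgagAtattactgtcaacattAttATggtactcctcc
The only frame of this exon that is open throughout in Igkv12.46 holds 1 stop codon in Igkv12.40. It arises by the substitution C120T, with positions counted from 1 at the first base of the exon, Igkv12.46 given first.

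Igkv1.110 (chr6:68270955-68271254, plus strand, the first 300 of 313 bases) was on top in the second most cells. Iglv1 (chr16:19085022-19085321, minus strand, the first 300 of 305 bases) and Iglv3 (chr16:19241231-19241530, minus strand, the first 300 of 324 bases) were the lambda segments with reads.
Igkv1.110: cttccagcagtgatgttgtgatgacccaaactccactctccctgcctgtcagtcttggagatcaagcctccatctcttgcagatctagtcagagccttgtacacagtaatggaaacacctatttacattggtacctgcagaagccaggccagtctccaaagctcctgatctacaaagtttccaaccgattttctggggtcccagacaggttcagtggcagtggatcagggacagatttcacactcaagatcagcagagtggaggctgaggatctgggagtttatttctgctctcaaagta
Iglv1: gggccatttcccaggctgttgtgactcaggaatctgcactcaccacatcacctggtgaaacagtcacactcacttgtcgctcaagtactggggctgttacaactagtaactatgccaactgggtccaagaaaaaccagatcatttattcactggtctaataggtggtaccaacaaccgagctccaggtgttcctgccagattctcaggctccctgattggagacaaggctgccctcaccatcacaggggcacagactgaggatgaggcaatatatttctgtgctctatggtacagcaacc
Iglv3: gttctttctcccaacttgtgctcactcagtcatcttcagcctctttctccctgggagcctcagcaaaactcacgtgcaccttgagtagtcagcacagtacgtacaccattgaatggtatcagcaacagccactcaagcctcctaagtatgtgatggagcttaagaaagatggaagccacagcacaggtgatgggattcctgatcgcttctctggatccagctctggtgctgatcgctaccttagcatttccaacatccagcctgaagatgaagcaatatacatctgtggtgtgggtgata
No bases are marked here, since the 3 are far apart. Iglv1 and Iglv3 were identical at 54% of aligned positions, Igkv1.110 and Iglv1 at 54.6%, and Igkv1.110 and Iglv3 at 49.9%, with no shared stretch over 8 bases.

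Light chain V reads were found almost wholly in the Cd79a/Cd79b cells. Of 88312 such reads in the whole series, 88274 (99.957%) were in these 76 cells, and every one of the 76 had at least 11. In the 426 other cells there were 38 reads, spread over 7 cells (1.64%, 0.663 to 3.36). As a check on cells that should lack these transcripts, Cd3e cells (Cd3e and Cd3g both at 10 rpm or more) and C1q cells (C1qa and C1qb both at 10 rpm or more) were taken from these 426 only. A light chain V read was found in 1.14% and 1.63% of them, with 1 and 2 reads at most. Median depths were 706527 and 620380 reads on genes against 724591 in the Cd79a/Cd79b cells. Cd79a/Cd79b cells with reads of Cd3e or C1qa, such as day 2 cell 41 and 6 h cell 44, were thus not part of the check.

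The cells outside with a read were examined singly. Day 3 cell 52 had 17 reads of Igkv3.4 and 1 of Iglv1, and also 32 reads of Cd79a, 9 of Cd79b, 33 of Ms4a1 and 58 of Igkc, with the T cell gene Cd3g at 650.5 rpm. Day 1 cell 20 had 12 reads of Iglv3, 89 of Igkc and 299 of Iglc3, a lambda constant region, with 0 reads of Cd79a and 1 of Cd79b. Both thus had reads of other light chain or B cell genes while falling below the rule. The other 5 cells had 1 to 3 reads each: day 2 cell 1 had 1 read each of Igkv12.44, Iglv3 and the unmatched row Igkv4.73.1, with Cd3e at 140.5 rpm and no read of Cd3g, day 4 cell 7 had 2 of Igkv12.46, and single reads were of Igkv6.15, Igkv8.21 and Igkv3.7.

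Within the Cd79a/Cd79b cells the summed light chain V level had a median of 1276 rpm (interval of the median 1083 to 1587) and ran from 24 to 3917 rpm. In the 17 fresh cells the lowest value was 430 rpm, the median 1174 rpm and the highest 2107 rpm. At 6 h the 9 cells ran from 33.4 to 3917 rpm with a median of 1587, at day 1 the 14 cells from 24 to 3160 with a median of 1014, and at day 2 the 30 cells from 380 to 3766 with a median of 1417 rpm. The 4 cells of day 3 were at 2688, 1165, 1715 and 1501 rpm and the 2 of day 4 at 693 and 1255 rpm. The ranges of all 6 timepoints overlapped. Among timepoints with cells in pool B, the medians were 1174 (fresh), 1014 (day 1), 1608 (day 3) and 974 rpm (day 4), and the interval of the fresh median, 867 to 1603 rpm, held those of day 1 and day 4, while that of day 3, from 4 cells, lay just above it.

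**Figure D1:**
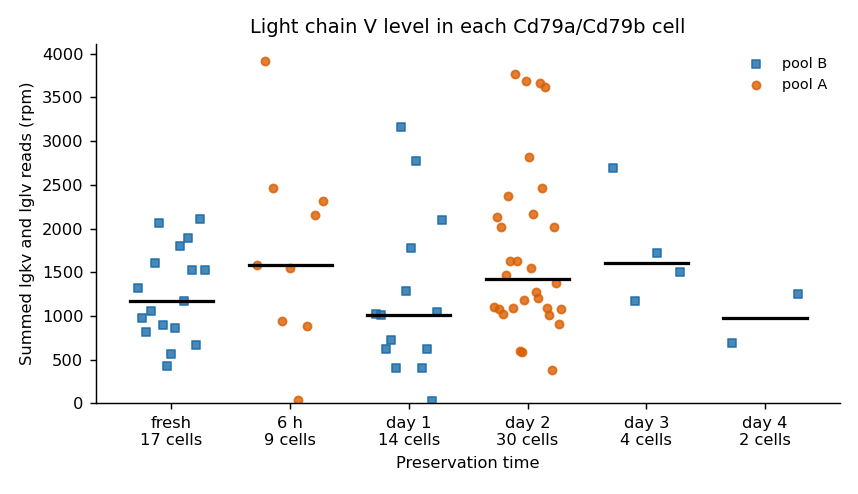
Summed Igkv and Iglv reads in rpm (vertical axis) in each of the 76 Cd79a/Cd79b cells by preservation time, with squares for pool B, circles for pool A and a black line at the median of the timepoint. Cells of every timepoint overlap in level, and the medians lie between 974 rpm (day 4, 2 cells) and 1608 rpm (day 3, 4 cells).

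The lowest cells were 6 h cell 44 (33.4 rpm, 37 reads) and day 1 cell 67 (24 rpm, 11 reads of Igkv9.129), and the latter was left out of the shares over 75 cells, which required 20 light chain V reads. The constant region Igkc, which the reads of every kappa transcript share, was read in all 76 cells, at 61.4 to 7970 rpm with a median of 3138 rpm. Per 100 reads of Igkc there were 43.5 light chain V reads in the median cell (5.64 to 112.4). The timepoint medians of this ratio were 38.5 (fresh), 42.3 (6 h), 32.6 (day 1), 49.2 (day 2), 46.5 (day 3) and 44.5 (day 4), with ranges that overlapped. Over the 76 cells, V level and Igkc level went together (Spearman's rho 0.78, Pearson's r 0.77), while V level and depth did so weakly (rho 0.22); the points share a denominator, and come from timepoints and pools of unequal depth.

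Most cells were led by 1 segment. In the 75 cells with 20 or more light chain V reads, the top segment held a median of 93.1% of them (26.6 to 100). It held at least 90%, called dominant here, in 41 of 75 cells (54.7%, 42.7 to 66.2), and at least 80% in 53 (70.7%). A single row held all light chain V reads in 23 of the 76 Cd79a/Cd79b cells. A dominant segment was found in 11 of 17 fresh cells (64.7%, 38.3 to 85.8), in 7 of 9 from 6 h (77.8%, 40 to 97.2) and in 6 of 13 from day 1 (46.2%, 19.2 to 74.9). Day 2 had it in 15 of 30 (50%, 31.3 to 68.7), day 3 had it in 2 of 4 and day 4 had it in 0 of 2. All these intervals overlapped. At the 80% level the fresh share was 16 of 17 (94.1%, 71.3 to 99.9). In the same pool, day 1 had 8 of 13 (61.5%, 31.6 to 86.1), day 3 had 2 of 4 and day 4 had 0 of 2. In the other pool, 6 h had 8 of 9 (88.9%, 51.8 to 99.7) and day 2 had 19 of 30 (63.3%, 43.9 to 80.1).

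**Figure D2:**
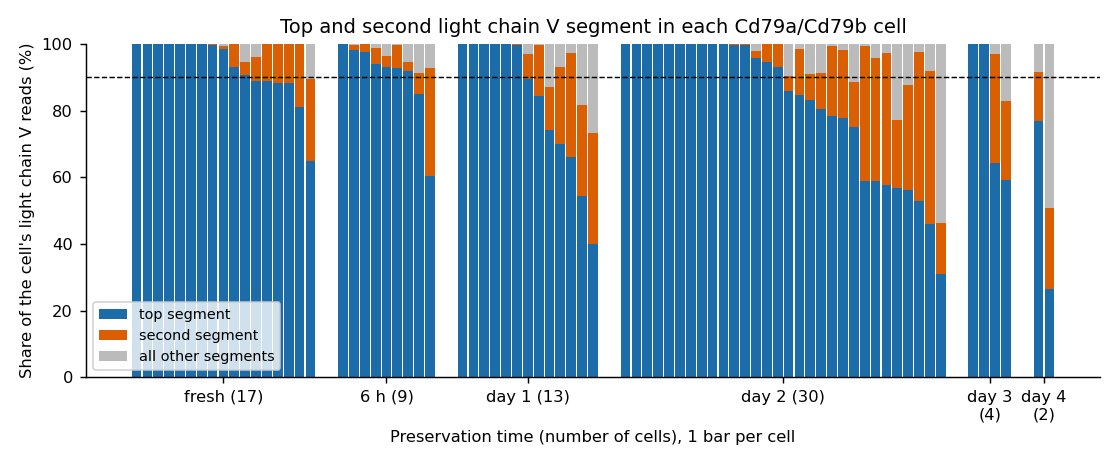
Share of each cell's light chain V reads in percent (vertical axis) held by its top segment (blue), its second segment (orange) and all others (gray), 1 bar per cell for the 75 cells with 20 or more such reads, ordered by timepoint and top share, with a dashed line at 90%. The top segment reaches the line in 41 of 75 cells, and the lowest top share is 26.6%, in a day 4 cell.

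The number of segments with at least 1 read was small. The median over the 76 cells was 2.5 rows (1 to 17), with 23 cells at 1 row, 15 at 2, 11 at 3 and 10 at 4. The median of fresh cells was 2 (1 to 4) and that of 6 h cells 4 (1 to 6). Day 1 had 2.5 (1 to 7), day 2 had 3 (1 to 17), day 3 had 4 (1 to 8) and day 4 had 6.5 (3 and 10). Depth differed, with a median of 530891 reads on genes in fresh Cd79a/Cd79b cells and 893016 in those of day 2. With every cell thinned to 100000 reads on genes, which left out none of the 76, the medians were 2 (fresh), 3 (6 h), 2 (day 1), 3 (day 2), 3 (day 3) and 6.5 (day 4). Counting only rows with 5% of the cell's light chain V reads gave 1 row in the median of all 76 cells. By timepoint the medians were then 1 (fresh), 1 (6 h), 1.5 (day 1), 2 (day 2), 1.5 (day 3) and 5 (day 4).

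The most rows, 17, were in day 2 cell 41, the cell with Cd3e and C1qa reads. Its leading rows were Iglv1 (303 reads, 31.1%), Igkv6.20 (15.3%), Igkv12.46 (95 reads), Igkv8.28 (78) and Igkv12.44 (75). Day 4 cell 2 had 10 rows at 692.7 rpm, led by Igkv8.21 (46 reads, 26.6%) and Igkv1.35 (42 reads, 24.3%), with no read of Cd3e or C1qa. Both were thus cells without a leading segment, but only the former had markers of other cell types.

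The rows of 6 h cell 44 recurred in another cell. It had 34 reads of Igkv1.117 and 1 read each of Igkv9.120, Igkv9.129 and the unmatched row Igkv19.93.1. All 4 were among the 6 rows of 6 h cell 36, with 1995, 24, 14 and 71 reads there. The gene Igll1, a part of the surrogate light chain of precursor B cells, was read in these cells alone among the 76, with 1 read in 6 h cell 44 and 51 in 6 h cell 36. Both libraries carry the same 5xx index and pool number, and the part of index assignment in this was not tested.

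Of all rows, 80 had a read in the Cd79a/Cd79b cells and 85 had none in these cells. Reads were found for 68 functional genes and not for 33, and for 9 of 58 pseudogenes, which together had 569 reads. There were 42 different top rows in 75 cells: 26 were on top in 1 cell, 9 in 2 cells and 7 in 3 or more. No pseudogene was on top; 41 of the top rows were functional genes and the remaining one was Igkv19.93.1, without a match. The 38 rows with reads that were never on top had 1 to 1452 reads in all (median 42).

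The 10 rows on top in the most cells, with ties ordered by summed reads, covered 37 of 75. At 2 cells each 9 rows were tied, of which 3 are among the 10. Igkv10.96 led in 8 cells, 3 fresh, 1 of day 1 and 4 of day 2, with 663 and 1070 reads in 2 of the fresh cells and 100% of the V reads in the third, 278 at day 1 and 470, 1407, 1362 and 1318 at day 2. It held at least 90% of light chain V reads in 7 of the 8, and all of them in 5. The exception was day 1 cell 51, where it held 74.3% and Igkv19.93.1 12.8%.

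Igkv1.110 led in 6 cells, with 881 reads in 1 fresh cell and 99.6% of the V reads in the other, 2625 at 6 h, 906 and 405 at day 1 and 2303 at day 2. It held 93.9% or more in 4 of these, but 40.1% in day 1 cell 47 and 58.8% in day 2 cell 61. In the former it led only while the like segments Igkv5.45 and Igkv5.43, described with the pairs, were counted apart. Igkv1.117 led in 4 cells, with 695 reads in a fresh cell, 1995 and 34 at 6 h and 1815 at day 2. Igkv6.15 also led in 4, with 912 (fresh), 1564 (6 h), 341 (day 1) and 1076 reads (day 2). These 3 segments led in cells of several timepoints and of both pools.

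A further 3 segments led in 3 cells each. Igkv3.4, near the J segments, had 978 reads in a fresh cell and 1432 and 1147 in cells of day 2. Igkv10.94 had 408 reads at day 1 and 628 and 1218 at day 2, and was dominant in none of them. Igkv12.46 had 273 reads at day 1, where it was the only row, 706 at day 2 and 487 at day 3. Igkv16.104 (2759 reads at 6 h, 1009 at day 2) and Igkv4.86 (2511 at day 2, 397 at day 4) led in 2 cells each, as did Iglv1, described with the lambda segments. The other 32 top rows led in 38 cells, with 94 to 3091 reads over all Cd79a/Cd79b cells. Different top rows numbered 13 in 17 fresh cells, 8 in 9 from 6 h and 12 in 13 from day 1. There were 24 in the 30 cells of day 2, and no top row was shared within day 3 (4 cells) or day 4 (2 cells). No J row had a read and heavy chain segments were not used here, so cells that share a segment were not told apart from cells of 1 clone.

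By family, the number before the point, Igkv1 led in 14 cells through 5 of its 13 rows, Igkv10 in 12 through all 3 of its rows, Igkv6 in 9 through 5 of 9, and Igkv3 and Igkv4 in 7 each, through 4 of 13 and 5 of 33 rows. Of 23 families, 16 had a top row. Igkv4, with 33 rows the largest, and Igkv10, with 3, thus differed in cells per row. The rows of Igkv4 included pseudogenes and unmatched rows, whereas those of Igkv10 were all functional genes. No test of the difference was made, since the labels name no animal and each timepoint was counted as 1 sample.

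Top segments came from the whole length of the kappa locus. The functional kappa genes with a position lie 18.4 to 3166 kb from Igkj1, the first of the J segments, and those on top lay 23.5 to 3166 kb from it. Divided into 4 parts with about equal numbers of functional genes, from the nearest to the farthest, the locus gave 19, 11, 19 and 23 cells, on 11 of 25, 8 of 24, 8 of 24 and 13 of 25 genes. In fresh cells the same parts gave 6, 1, 6 and 4 cells, and at day 2 they gave 5, 6, 8 and 10. Of functional genes 38 lie on the plus strand, that of Igkc, whose joining deletes the DNA between, and 60 on the minus strand, whose joining inverts it. The top genes were 20 and 20, and they led in 34 and 38 cells.

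**Figure D3:**
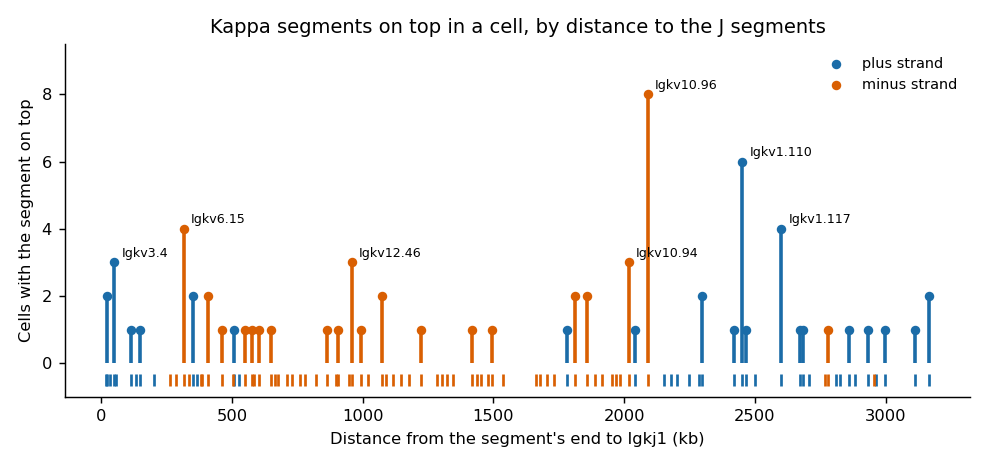
Number of Cd79a/Cd79b cells in which a functional kappa segment was on top (vertical axis) by the distance of the segment to Igkj1 in kb (horizontal axis), in blue for the plus and in orange for the minus strand, with ticks under the axis for all functional segments. Cells fall along the whole locus, with peaks at Igkv10.96 (8 cells) and Igkv1.110 (6 cells).

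A second segment was common. It held at least 5% of light chain V reads in 37 of 75 cells (49.3%, 37.6 to 61.1) and at least 20% in 18 (24%, 14.9 to 35.3). The 5% level was reached by 7 of 17 fresh cells, 3 of 9 from 6 h and 7 of 13 from day 1, while day 2 had 16 of 30, day 3 had 2 of 4 and day 4 had 2 of 2. The 20% level was reached by 1, 1, 4, 9, 2 and 1 cells in the same order. The fresh share at 5% was 41.2% (18.4 to 67.1) and that of day 2 53.3% (34.3 to 71.7), and they overlapped. Of the 37 pairs, 24 were a kappa pair, 11 had a lambda segment second to a kappa segment, and in 2 Iglv1 was on top.

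In the kappa pairs, 9 second segments belonged to the family of the top one and 15 to another. V exons of the same family were 79.6 to 95.2% identical and those of different families 57.2 to 74.4%, in the 22 pairs with both positions known. In 4 of these pairs the exons shared a stretch of 75 bases or more, the length of a read. Of all matched segments, 71 had at least 1 window of 75 bases in common with another segment, and so did 29 of 41 top ones, over at most 53.1% of their windows. A window stands for a single read, and the mate of a read was not considered. In the pairs of different families, the longest shared stretch was 48 bases. The second segment lay nearer to the J segments than the top one in 15 of 22 pairs and farther in 7, on the same strand in 15 and on opposite strands in 7, at 72.5 to 3131 kb from it (median 318).

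Same-family pairs with 20% or more were found in 6 cells. In day 2 cell 43 Igkv10.94 had 1218 reads (46%) and Igkv10.96 1212 (45.8%), and in day 2 cell 17 they had 628 and 431. With Igkv10.94 on top Igkv10.96 thus came second in 2 of 3 cells, while 5 of the 8 cells led by Igkv10.96 had no read of any other segment. In day 2 cell 47 Igkv6.15 had 1076 reads (53%) and Igkv6.32 908 (44.7%), and in day 2 cell 30 Igkv1.117 had 1815 (57.8%) and Igkv1.135 1237 (39.4%). Day 1 cell 32 had 94 reads of Igkv4.58 and 44 of Igkv4.78. In day 3 cell 56 Igkv12.46 had 487 reads (59.1%) and the pseudogene Igkv12.40 had 23.9%, and in day 2 cell 68 the same pair had 706 and 94, while day 1 cell 7, led by Igkv12.46 alone, had 273 reads and none of Igkv12.40.

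Pairs of different families at this level were found at every timepoint. A fresh cell had 499 reads of Igkv8.28 (65%), with 24.5% from Igkv6.17, and that of 6 h was cell 71, with 1743 of Igkv10.95 (60.5%) and 935 of Igkv1.135 (32.4%). At day 1, cell 40 had 470 reads of Igkv19.93.1 and 27.3% of its V reads from Igkv6.15, cell 47 had 906 of Igkv1.110, 750 of Igkv5.45 and 602 of Igkv5.43 (26.7%), and cell 74 had 1168 of Igkv2.109 and 387 of Igkv4.78. In each of these 5 cells the second segment thus had more than 100 reads. The V exons of Igkv5.45 and Igkv5.43 differed at 3 of 298 bases, and many single reads of 75 bases cannot by themselves be assigned to either. Mates were not considered, so the division of reads between these segments in cell 47 is uncertain. Their sum was 1352 reads (59.9%), more than the 906 of Igkv1.110.

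At day 2, cell 9 had 928 reads of Igkv12.41 and 518 of Igkv6.25, cell 23 had 1676 of Igkv9.124 and 441 of Igkv5.43, cell 61 had 2303 of Igkv1.110 and 1452 of Igkv12.98, and cell 63 had 2563 of Igkv6.25 and 694 of Igkv8.21. Day 3 cell 68 had 982 of Igkv17.127 and 502 of Igkv4.55, and day 4 cell 2, with 10 rows, is given above. A further cell, day 2 cell 76, had 447 reads of Igkv1.133 and 20.4% of its V reads from Iglv1. Of the 18 second segments at 20% or more, 4 (22.2%) were the top segment of another cell of the same pool with an index in common. These were Igkv10.96 in day 2 cell 43 (470 reads in the other cell), Igkv6.32 in day 2 cell 47 (367), Igkv6.17 in the fresh cell (997) and Igkv6.15 in day 1 cell 40 (341). In the first 2 of these the second segment had more reads than in the other cell. Over all rows that were not on top, this was so for 7.5% of those with up to 3 reads and 8.40% of those with more, and for 3 of 10 rows in cells outside the Cd79a/Cd79b rule. The part of reads assigned to a wrong library was not tested. Counts do not show whether a segment had been joined or in frame, and doublets were not tested.

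**Figure D4:**
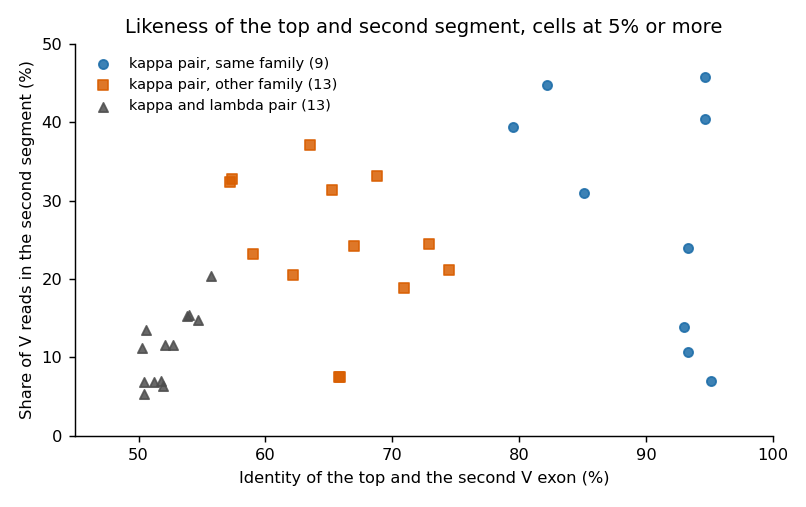
Share of the cell's light chain V reads in the second segment in percent (vertical axis) against the identity of the V exons of the top and second segment in percent (horizontal axis), for the cells with a second segment at 5% or more and both exons known. Kappa pairs of the same family (circles, 79.6 to 95.2% identity) and of other families (squares, 57.2 to 74.4%) both reach shares above 30%, and pairs of a kappa and a lambda segment (triangles) do not exceed 20.4%.

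Kappa made up nearly all light chain V reads. In the Cd79a/Cd79b cells 84419 reads were of Igkv rows and 3855 of Iglv rows (95.6% kappa). By timepoint the kappa share of summed reads was 95.7% (fresh), 98.8% (6 h), 81.1% (day 1), 97.7% (day 2), 97.6% (day 3) and 89% (day 4), and the low value of day 1 came from 1 cell, with 1914 of the 1926 lambda reads. Of 75 cells, 64 had at least 90% kappa (85.3%, 75.3 to 92.4), 11 were mixed, and 0 had 90% lambda, which allows a share of up to 4.00%. Kappa cells were 12 of 17 fresh cells, 9 of 9 from 6 h and 12 of 13 from day 1, while day 2 had 27 of 30, day 3 had 3 of 4 and day 4 had 1 of 2, with overlapping intervals.

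Iglv1 was read in 4 Cd79a/Cd79b cells and Iglv2 in none. In day 1 cell 39 Iglv1 had 1914 reads (84.3%), beside 349 of Igkv9.124, 2020 of Igkc, 1986 of Iglc3, fewer of Iglc2 and none of Iglc1. Its Iglc3 level, 2765 rpm, was the highest of the 76 cells. The other 3 had 31.1% (day 2 cell 41), 20.4% (day 2 cell 76) and 7.01% (a fresh cell) of their V reads from Iglv1, below the kappa reads of the same cell in sum. Iglv1 is known to join mostly to the J segments before Iglc1 and Iglc3.

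Iglv3 was read in 20 of 76 cells (26.3%, 16.9 to 37.7) and on top in none. It was found in 6 fresh cells, in 3 from 6 h and in 8 from day 2, and in 1 cell of each other timepoint. In the 17 cells with 10 or more of its reads it held 1.74 to 14.7% of light chain V reads (median 6.89%), beside 15 different top segments. It was the second segment at 5% or more in 9 cells. In each of the 20 cells a kappa segment had more reads than Iglv3, while day 1 cell 20, outside the Cd79a/Cd79b rule, had no V read but those of Iglv3.

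The lambda constant regions gave another account than the lambda V segments. Iglc1 to Iglc4 were read in 67 of 76 Cd79a/Cd79b cells, with a summed median of 1815 rpm (0 to 5914), and 48 of the 54 cells without an Iglv read had Iglc reads (74117 reads in all). Iglc2 was read in 60 cells (median 1098 rpm), Iglc3 in 61 (540 rpm), Iglc1 in 36 and Iglc4 in 1. Both Iglc2 and Iglc3 were read in 55 cells, and neither in 10. In the 426 other cells, 10 had a read of Iglc, 338 reads in all, 299 of them in day 1 cell 20.

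Iglc reads outnumbered those of Igkc in 16 of 76 cells, 11 of which had no lambda V read. By constant regions only 14 of 76 cells (18.4%) had 90% or more kappa, in contrast to 64 of 75 by V segments. The median Iglc level was 1689 rpm in the 54 cells without and 1989 rpm in the 22 cells with a lambda V read, with ranges of 0 to 5914 and 0 to 4108 rpm. By timepoint the summed Iglc median was 2020 rpm (fresh, 506 to 3225), 1405 (6 h), 668 (day 1), 2095 (day 2), 1242 (day 3) and 0 rpm in both cells of day 4. Iglc reads were found in all 17 fresh cells, in 6 of 9 from 6 h, in 12 of 14 from day 1, in 28 of 30 from day 2 and in all 4 from day 3. In the GENCODE annotation the span of Iglc2 (chr16:19198396-19200351) includes the J segment Iglj2, while the spans of Iglc1 and Iglc3 are shorter. The gene models used by the authors were not checked. Whether reads upstream of the constant exon were counted for Iglc2 was not tested.

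**Figure D5:**
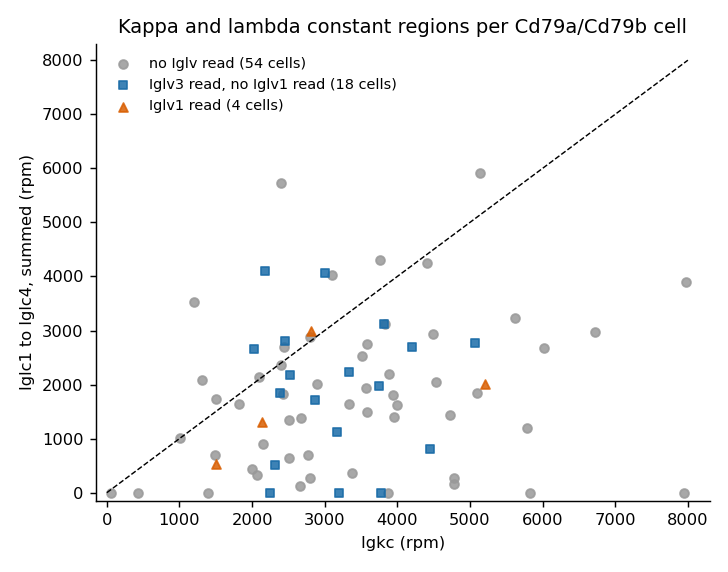
Summed Iglc1 to Iglc4 level in rpm (vertical axis) against the Igkc level in rpm (horizontal axis) in each of the 76 Cd79a/Cd79b cells, with gray circles for cells without an Iglv read, blue squares for Iglv3 and orange triangles for Iglv1 reads, and a dashed line of equal levels. Cells without an Iglv read reach the highest Iglc levels (5914 rpm), and 16 of 76 cells lie above the line.

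The other genes of the pathway were read as follows. None of the 10 J rows had a read in any cell; they are 38 to 43 bases long, shorter than a read of 75 bases, and strict counting required a whole read to lie within a gene. Of the surrogate light chain, Vpreb1 and Vpreb2 had no read in Cd79a/Cd79b cells and Igll1 was read in 2. Vpreb3, counted apart from the surrogate light chain, was read in 37 of these cells, with 2238 rpm at most. Rag1, a subunit of the recombinase, was read in 4 cells, at 917 and 284 rpm in the 2 cells of day 4, with 25 reads in 6 h cell 25 and 9 in day 2 cell 76, and Rag2, the other subunit, in none. Dntt, which adds bases at the joints, had no read in them either. Of these 4 cells, 6 h cell 25 had 97.7% of its V reads in Igkv16.104, day 2 cell 76 had 7 rows and the 2 cells of day 4 had 10 and 3, while day 2 cell 30, with 8 rows, had no read of Rag1. Among factors of light chain promoters, Pou2f2 (Oct2) was read in 31, the coactivator Pou2af1 in 25 and Pou2f1 (Oct1) in 7 of 76 cells, against 110, 2 and 37 of 426 others.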

How the data were processed

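Cd45+ single cells from mouse kidneys were sequenced after a protocol adapted from SmartSeq2, in which each sample is 1 cell and no molecular identifiers are used. The authors sequenced paired ends and trimmed reads to 75 bases. They removed duplicates with picard, aligned to GRCm38 with STAR and counted with HTSeq (intersection-strict, strand ignored). They deposited raw counts of reads per gene, without normalization. The version of each tool was not given in the sources used here. CD1 mice are outbred, and differences of their alleles from the reference can move reads between like segments. Reads across a V and J joint are not whole within a gene and are not counted. ERCC and vector rows (0.140% of counts) name no gene and were left out.

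Counts were divided by the cell's gene total (rpm) in Python 3.11.15 with pandas 2.3.3, numpy 2.4.6 and scipy 1.17.1; V exons were aligned globally with Biopython 1.88. A timepoint was counted as 1 sample, so no test was made. Shares have exact Clopper-Pearson intervals and medians order-statistic intervals (95%). At day 3 and day 4 the cells were too few for this, and the range stands for the interval of a median, below the 95% level. A count of 0 allows 3 counts. Reads are not independent molecules. Functions were tested on simulated data. The members, lists and rules were chosen with earlier results of these data known. Named were the 10 rows on top in the most cells, each Iglv row with a read, the rows with the most reads outside Cd79a/Cd79b cells (5, more where tied), both rows of cells whose second held 20%, and all pathway genes; leading rows of cells that stood apart, and a few other rows, were named after their values were seen. Promoters and proteins of the segments were not analysed here. Alternatives covered the cell rule, depth, read minimums and dominance level.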

Additional observations from a re-analysis of the deposited data

How the results depend on the processing

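No paired analysis was possible because every value comes from no test and a timepoint was counted as 1 sample. Of 272 alternative values of 42 results, 35 lay outside the interval of the reported value (for numbers of distinct top segments, which have none, beyond 1.5 times). The others are no sign of stability throughout: a minimum of 100000 reads on genes left out 0 of 76 cells, pool B alone changed no Cd79a/Cd79b cell of fresh tissue or day 4, and the intervals of day 3 and day 4 are wide. Within its interval, the median number of segments moved with 10 reads a segment. It went from 4 to 2 at 6 h and day 3, from 2 to 1 in fresh cells and from 2.5 to 1.5 at day 1. With a cell rule of 1 read it went from 2.5 to 1.5 at day 1, 4 to 2 at day 3 and 6.5 to 3 at day 4. At 5% of V reads it was 1 in fresh cells, 1.5 at day 1 and day 3, 2 at day 2 and 5 at day 4. Leaving out the 3 Cd79a/Cd79b cells with C1qa, an alternative chosen after seeing the data, moved none. With dominance at 80% the share was 70.7% in all and 94.1% in fresh cells; at 95% it was 33.3% at 6 h, and with families summed 70% at day 2. Counting segments at 5% of V reads gave a median of 1 in all and at 6 h. Kappa cells called by constant regions were 18.4% in all and 0% of fresh cells, while 6 h had 33.3%, day 1 had 35.7%, day 2 had 10%, day 3 had 25% and day 4 had 100%; called at 50% of V reads they were 98.7% in all and 100% in fresh cells and at day 2, day 3 and day 4. The causes were not tested, beyond the construction of each level. Distinct top segments fell to 26 in all among dominant cells (8 fresh, 6 at day 1, 11 at day 2, 2 at day 3, 0 at day 4) and to 16 with families summed (8 fresh, 13 at day 2), where fewer cells or rows can count. Cells outside the rule with a light chain V read were 0.469% in all at a minimum of 10 reads, with 0% in fresh cells, at day 2 and at day 4; they were 0% in fresh cells when thinned and in pool B, and 0% at day 1, day 3 and day 4 among cells without a read of Cd79a or Cd79b. Within its interval the share of 1.64% in all went to 0.789% among the latter and to 0.957% when thinned, the 6.25% of day 2 to 2.08% when thinned, the 3.03% of day 4 to 5.88% in pool B and the 0.719% of fresh cells to 1.33% in pool A. Depth limits the rows that a cell shows, and day 3 and day 4 rest on 4 and 2 cells.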
